A study of Homo sapiens with 2 samples.

Results

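The S100 proteins are a family of small calcium-binding proteins, and 10 of their genes were examined here by name in a deposited table of read counts for 58735 genes. The genes were S100A2, S100A4, S100A6, S100A9, S100A10, S100A11, S100A13, S100A14, S100A16 and S100P. RNA sequencing had been done on 1 library of MAEL wildtype (MAEL WT) and 1 library of MAEL knockout (MAEL KO) PLC8024 cells, a human hepatocellular carcinoma line that the labels also call Alexander cells and the methods PLC/PRF/5. Both were grown in the same medium with fetal bovine serum. The MAEL WT cells were listed as non-treated. The MAEL KO cells had been made with a plasmid carrying Cas9 and an sgRNA against MAEL, and the labels say that the knockout was checked by western blot and T7E1 assay. Sorted cells were seeded as single clones, so a difference between the libraries cannot be told apart from one between a clone and the parental cells. MAEL encodes maelstrom, a protein of the piRNA pathway in the germ line. The comparison asked how S100 transcripts differed between the MAEL WT and the MAEL KO library.

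Each S100 protein carries a pair of EF-hands, the helix-loop-helix folds that hold calcium, and most work as dimers. On binding calcium they expose a surface that grips a target protein such as an annexin, a myosin or a cytoskeletal linker. Several are also released from cells and act on receptors such as AGER, the receptor for advanced glycation end products. Most of the genes lie close together on the long arm of chromosome 1, where S100 genes flank and mingle with genes of the epidermal differentiation complex, which build the outer skin. In liver cancer, S100P, S100A4, S100A10 and S100A11 are mostly known from work on growth, invasion and metastasis.

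The MAEL WT library held 19904136 counts and that of MAEL KO 20833332. MAEL itself had 1 count and 0 counts, so its transcript does not check the labels. Of 14 hepatocyte markers all passed the filter used here, at least 10 counts in 1 library, and all were higher in MAEL KO. Their summed level was 18840 CPM (counts scaled to a common library total) in MAEL WT and 32340 CPM in MAEL KO. Albumin (ALB), with the largest fold change of the list, went from 59 to 8550 counts. FGG, with the smallest, went from 42872 to 46697 counts. The part of this shift in the S100 results was not tested. In RNA from a whole culture, fewer cells of a type and less RNA per cell cannot be told apart. With 1 library per condition there was no replicate error and no test, and all 95% intervals below cover counting error only.

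Of the 10 genes, 9 lay on chromosome 1 of GRCh38, and S100P lay on chromosome 4 from 6693069 to 6697170. S100A10, from 151982915 to 151994390, and S100A11, from 152032506 to 152047907, were separated by 38.1 kb. A gap of 1310 kb followed. S100A9, S100A6, S100A4, S100A2, S100A16, S100A14 and S100A13 came after it, between 153357854 and 153631360. S100A9 and S100P are on the plus strand and the other 8 genes on the minus strand.

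Bases before the transcription start are shown for 5 of the genes, because these held a match to a searched motif close to the start. RefSeq (GRCh38.p14) gave 14 start sites for the 10 genes. The 250 bases before each start were searched on both strands for 6 short motifs. The TATA box was spelled TATAAA and the GC box, which Sp factors bind, was spelled GGGCGG. The motif of AP-1 was spelled TGANTCA and that of TEAD factors was spelled CATTCC. For C/EBP factors the letters were TTGCNNAA, and for STAT factors the search used the letters TTCNNNGAA, where N is any base. Each line gives 30 bases, from 40 to 11 bases before the start, 5′ to 3′ on the gene's strand, and capitals mark a match to one of these motifs.
S100P, chr4:6693838-6693867, plus strand: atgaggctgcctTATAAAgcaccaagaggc
S100A4, chr1:153545817-153545846, minus strand: tggctggggTATAAAtaggtcagacctctg
S100A9, chr1:153357814-153357843, plus strand: caggagctgccTATAAAtgccgagcctgca
S100A13, chr1:153627516-153627545, minus strand: tccccgctgctTATAAAcctcagccctgag
S100A11, chr1:152037015-152037044, minus strand: gtaaggcTTGGGCAAggctgggccgggaag

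S100P, S100A4, S100A9 and 1 of 3 start sites of S100A13 held TATAAA between 28 and 31 bases before the start. That made 4 of the 14 sites, and 10.7% of 35116 promoters of the same length held these letters anywhere in the 250 bases. S100A11 held the C/EBP letters as TTGGGCAA, read on the other strand, and 9.05% of all promoters held a match. GGGCGG was found at 6 of the 14 sites and in 42.6% of all promoters. Of the remaining motifs, AP-1 letters were found at 1 start site of S100A2 and TEAD letters at 1 of S100A16, and STAT letters at none of the 14. The AP-1, TEAD and STAT letters were held by 6.57%, 11.9% and 6.57% of all promoters. No 2 different motifs overlapped in these windows. A match is a run of letters and not a measured binding site.

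S100P was by far the most abundant of these transcripts in MAEL WT and was much lower in MAEL KO. S100P (ENSG00000163993), first found in placenta, is a protein that binds ezrin and the receptor AGER. It had 14792 counts in MAEL WT and 2268 in MAEL KO, or 13789 and 2446 counts after scaling by TMM, a method that matches libraries by the bulk of their genes. On the log2 scale the difference, here always MAEL KO minus MAEL WT after adding 1 to the scaled counts, was -2.49 (95% interval -2.56 to -2.43), which is 5.64-fold lower. With the library totals in place of TMM it was -2.77. Per length, its deposited FPKM value went from 528 to 93.5, and its place among genes with an FPKM above 0 from percentile 99.9 to 98.2.

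S100A11 (ENSG00000163191), calgizzarin, is a partner of annexin A1 and was the second most abundant member in MAEL WT. It had 2740 counts in MAEL WT and 795 in MAEL KO, and FPKM values of 184 and 61.7. The log2 fold change was -1.57 (95% interval -1.69 to -1.46), short of the threshold of 2 on the log2 scale that the study used, and -1.85 with library totals. An antisense gene over S100A11, AL450992.1, had 6 and 3 counts. Reads could also match any of 11 S100A11 pseudogenes in the table. The 16 S100 pseudogenes listed held 3 counts in MAEL WT and 4 in MAEL KO in all. These counts do not show what became of reads that matched both a pseudogene and S100A11.

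S100A10, which lies beside S100A11, differed the other way. S100A10 (ENSG00000197747), also called p11, has lost calcium binding and forms a complex with annexin A2 at the cell membrane, where it can bind plasminogen activator. It had 2162 counts in MAEL WT and 5090 in MAEL KO. The log2 fold change was 1.45 (95% interval 1.37 to 1.52), or 1.17 with library totals, and the FPKM value went from 64.1 to 174. S100A10 was the only one of the 10 genes above 1 on the log2 scale.

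The ratio of S100A10 to S100A11 within a library does not depend on how the libraries are scaled. By FPKM it was 0.348 in MAEL WT and 2.82 in MAEL KO, a change of 3.02 on the log2 scale (95% interval 2.89 to 3.16) or 8.11-fold. The ratio of S100P to S100A10 went from 8.25 to 0.537, and that of S100P to S100A11 from 2.87 to 1.52. S100A11 was above S100A10 in MAEL WT and below it in MAEL KO.

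**Figure D1:**
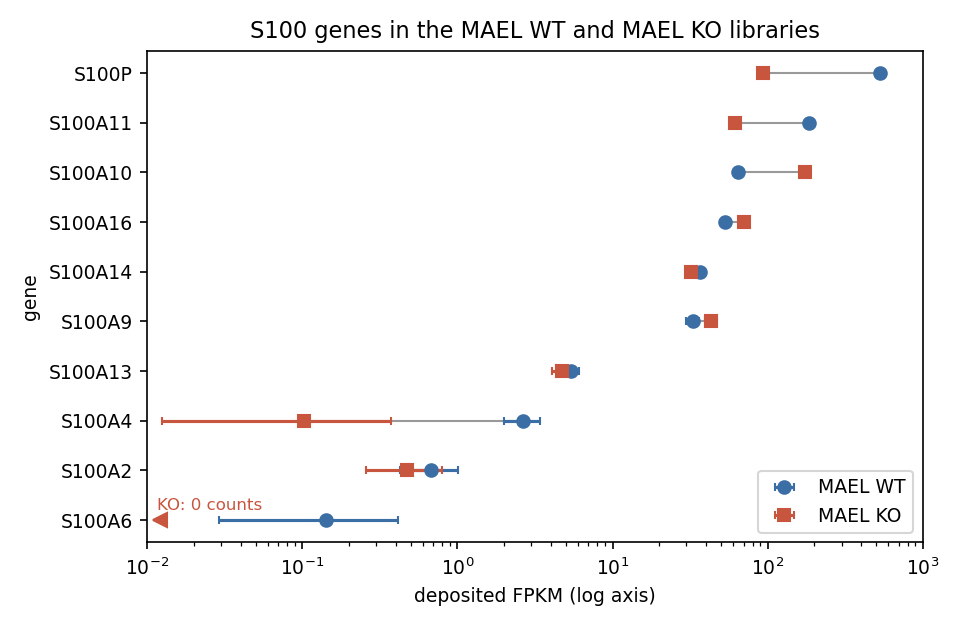
Deposited FPKM (log axis) of the 10 S100 genes in MAEL WT (circles) and MAEL KO (squares), ordered by the MAEL WT level, with bars for the 95% Poisson interval of the count. S100P lies at 528 in MAEL WT and 93.5 in MAEL KO, S100A10 lies higher in MAEL KO, and S100A6, drawn with a triangle at the edge, had 0 counts in MAEL KO.

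S100A4 (ENSG00000196154), known as metastasin for its part in cell motility and its binding of the non-muscle myosin MYH9, was scarce in MAEL WT and nearly absent from MAEL KO. It had 59 counts and 2 counts, FPKM values of 2.63 and 0.103. The log2 fold change was -4.15, and the 95% interval of -7.75 to -2.76 stayed below -2 despite the few counts. S100A4 passed the filter through its MAEL WT count alone. S100A3 lies within S100A4 on the same strand and had 7 counts and 1 count, so reads of the shared stretch could belong to either gene.

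S100A16, a widely expressed member, had 1983 counts in MAEL WT and 2280 in MAEL KO, which is 0.41 on the log2 scale (95% interval 0.32 to 0.50). S100A9 had 416 and 473 counts, or 0.39 (95% interval 0.20 to 0.59). With library totals both came closer to 0, to 0.14 and 0.12. Their ratio hardly moved, with S100A9 at 0.618 times the FPKM of S100A16 in MAEL WT and 0.612 times in MAEL KO (log2 change -0.02, 95% interval -0.23 to 0.19).

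S100A9 is best known from neutrophils and monocytes, where it pairs with S100A8 to form calprotectin. S100A8 had 1 count in MAEL WT and 0 in MAEL KO, so its transcript was not detectable at this depth while S100A9 stood at FPKM values of 33.0 and 43.2. Of 12 myeloid markers, 6 were at or under 3 counts in both libraries, among them PTPRC, with 3 counts and 0. MPO, a neutrophil granule enzyme, had 0 counts and 1. The 3 that passed the filter were all lower in MAEL KO, LYZ with 1251 and 737 counts, ITGAM with 50 and 21, and CSF3R with 48 and 1. The summed level of the list was 68.9 CPM in MAEL WT and 37.1 CPM in MAEL KO, most of it LYZ. The part of these transcripts in the S100A9 values was not tested.

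S100A14 and S100A13, next to S100A16 on the chromosome, differed little between the libraries. S100A14, an epithelial member, had 1027 and 776 counts, a difference of -0.19 (95% interval -0.33 to -0.06). S100A13, which helps release FGF1 and IL1A by a route outside the classical secretory pathway, had 263 and 199 counts, also at -0.19 (95% interval -0.47 to 0.08). With library totals both were at -0.47. The ratio of S100A14 to S100A13 was 6.78 in MAEL WT and 6.77 in MAEL KO by FPKM. S100A13 overlaps S100A1 on the other strand, which had 22 and 26 counts, and AL162258.1 on its own strand, with 3 and 0.

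S100A2 and S100A6 were at the limit of what these libraries can show. S100A2, a p53-binding member of epithelial cells, had 23 and 14 counts, a difference of -0.48 whose 95% interval of -1.58 to 0.51 includes 0. S100A6, calcyclin, had 3 counts in MAEL WT and 0 in MAEL KO. Both are at or under the floor of 3 counts, which corresponds to 0.151 CPM in MAEL WT and 0.144 CPM in MAEL KO, so no fold change was computed.

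**Figure D2:**
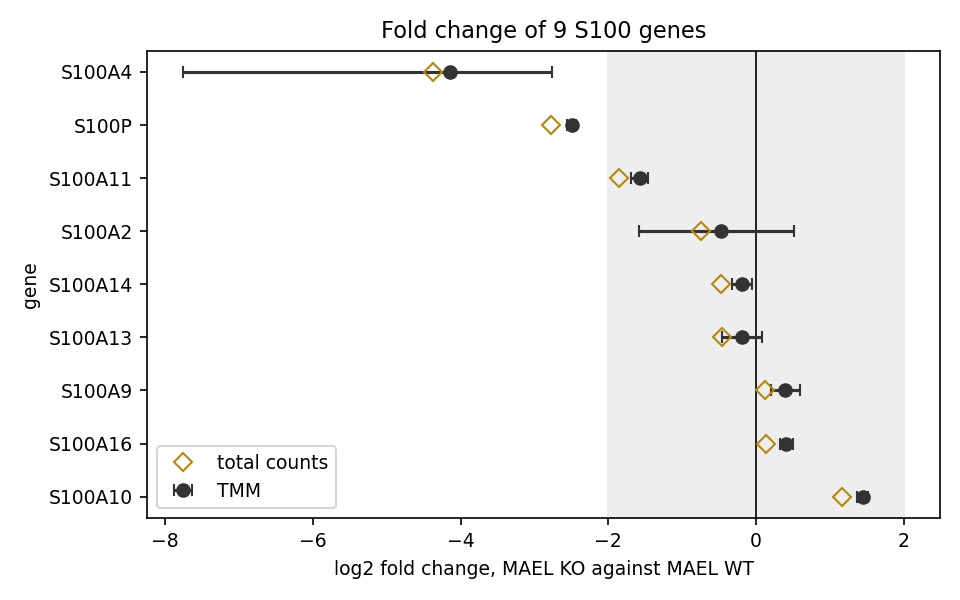
Difference on the log2 scale (MAEL KO minus MAEL WT) for the 9 S100 genes above the floor of 3 counts, with TMM scaling (filled circles, bars for the 95% counting interval) and with library totals (open diamonds). The grey band runs from -2 to 2, and S100A4 and S100P lie to its left under both scalings.

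Of the 9 genes with at least 10 counts in 1 library, 2 (S100A4 and S100P) were below -2 and 0 were above 2. Among all 17887 genes so filtered, 5.64% were below -2 and 2.16% above 2. At 1 on the log2 scale, 3 were lower, with S100A11 added, and 1 was higher, S100A10, and among all genes 16.5% were below -1 and 10.2% above 1. Their median was -0.19, beside -0.04 for all genes. With library totals the median was -0.31 for all genes and -0.47 for the S100 genes, and 269 genes were above 2 and 1309 below -2, beside 387 and 1008 with TMM.

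Low counts make large fold changes more frequent, so the better counted genes were also taken alone, a choice made after the values were seen. Of 5516 genes with at least 1000 counts in 1 library, 1.05% were below -2, 1.52% above 2, 5.08% below -1 and 10.5% above 1. The 5 S100 genes of that depth were S100P, S100A11, S100A10, S100A16 and S100A14. Of these, 1 was below -2, 2 were below -1 and 1 was above 1. S100P and S100A11 were lower in MAEL KO and S100A10 was higher.

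**Figure D3:**
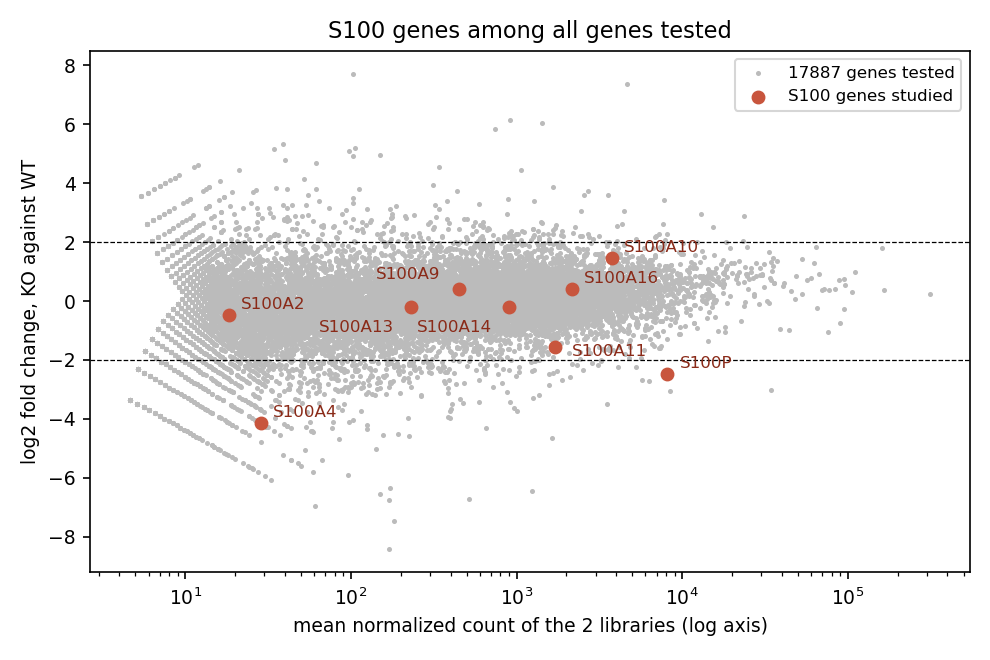
Log2 fold change against the mean TMM-scaled count (log axis) for 17887 genes (grey) and the 9 S100 genes that passed the filter (red), with dashed lines at -2 and 2. S100P lies below the line among well counted genes, and S100A4 lies below it at the left, where large fold changes are common.

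The 10 genes together took 0.118% of the counts in MAEL WT (95% Clopper-Pearson interval 0.116% to 0.119%) and 0.0571% in MAEL KO (0.0561% to 0.0581%). Most of that difference came from S100P. Without it the other 9 genes held 8676 and 9629 counts, a log2 difference of 0.36 with TMM and 0.08 with library totals. By summed FPKM they stood at 380 and 387, while all 10 stood at 909 and 480.

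The make-up of the family differed between the libraries. S100P made up 58.2% of the summed FPKM in MAEL WT and 19.5% in MAEL KO. S100A10 went from 7.05% to 36.2% and became the leading member, S100A11 went from 20.3% to 12.8%, and S100A16 from 5.87% to 14.7%. In MAEL WT the order by FPKM was S100P, S100A11, S100A10, S100A16, S100A14, S100A9, S100A13, S100A4, S100A2 and S100A6, and only S100A14 and S100A9 had neighbouring levels with overlapping counting intervals. In MAEL KO it was S100A10, S100P, S100A16, S100A11, S100A9, S100A14, S100A13, S100A2, S100A4 and S100A6. There S100A2 and S100A4 overlapped, and no interval was computed for S100A6, which had 0 counts.

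**Figure D4:**
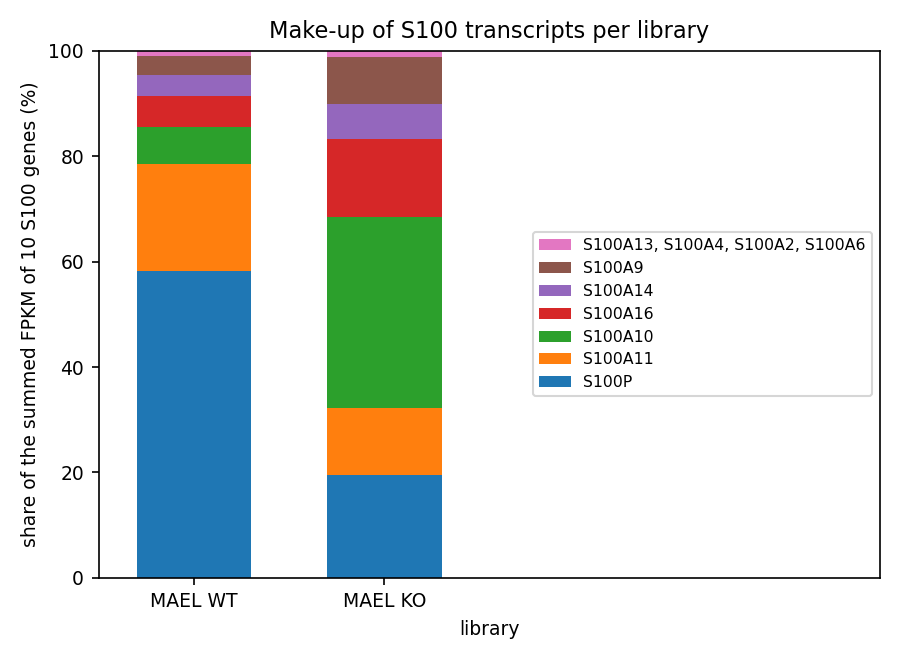
Share of the summed FPKM of the 10 S100 genes taken by each gene in each library, with the 4 scarcest genes joined. S100P took 58.2% of the MAEL WT column and 19.5% of the MAEL KO column, and S100A10 took 7.05% and 36.2%.

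The rest of the family was almost silent. Of 11 other S100 genes, 9 were at or under 3 counts in both libraries, and 5 of these had no count. S100A1, a muscle member, had 22 and 26 counts (log2 fold change 0.43, 95% interval -0.42 to 1.34), and S100A3 was given above with S100A4. S100Z had 2 and 0 counts, S100A5 1 and 0, and S100G 0 and 1. The 7 fused-type relatives, in which an S100 domain heads a long repeat protein such as filaggrin (FLG), held at most 2 counts each.

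The genes around the members on chromosome 1 did not share one direction. Between S100A10 and S100A13, 55 further protein-coding genes are annotated, and 53 of them, including keratinocyte genes of the epidermal differentiation complex, were at or under 3 counts in both libraries. Only S100A1 passed the filter there. Within 1 Mb on either side, 54 protein-coding genes passed, with a median log2 fold change of -0.18, 2 above 2 and 3 below -2. The other 1310 tested protein-coding genes of chromosome 1 had a median of -0.02, with 27 above 2 and 65 below -2. Among all tested genes 2.16% were above 2 and 5.64% below -2. SELENBP1 (36 and 170 counts, 2.42), AQP10 (5 and 26 counts, 2.36) and CHRNB2 (13 and 40 counts, 1.75) were the highest of the flanking genes by log2 fold change. SHE (180 and 13 counts, -3.49), NPR1 (192 and 24 counts, -2.74) and TDRD10 (43 and 8 counts, -2.09) were the lowest. Of 11 keratinocyte markers, 8 had no count and KRT10 had 2583 and 1177.

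**Figure D5:**
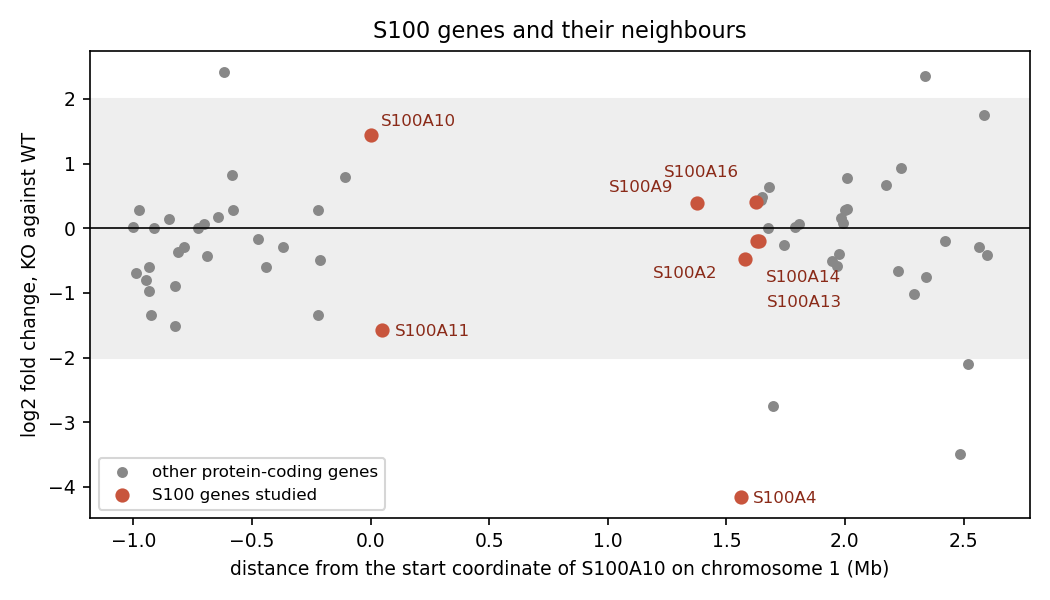
Log2 fold change of the chromosome 1 S100 genes (red) and of the other protein-coding genes within 1 Mb of them (grey) by distance from the start coordinate of S100A10 in Mb, with a grey band from -2 to 2. S100A10 and S100A11 lie side by side at 1.45 and -1.57, and the genes around both clusters scatter on either side of 0.

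Annexins, which bind membranes in the presence of calcium and are the best known targets of S100 proteins, were described as a list of 13 genes. Of the 10 that passed the filter, 2 were above 2, 1 was below -2, and the median was 0.19 with TMM and -0.09 with library totals. Among all tested genes 2.16% were above 2 and 5.64% below -2. ANXA2, the partner of S100A10, had 17165 and 17871 counts, a difference of 0.27 with TMM (95% interval 0.24 to 0.30) and of -0.0077 with library totals, so its direction depends on the scaling. The FPKM ratio of S100A10 to ANXA2, which does not, was 0.720 in MAEL WT and 1.63 in MAEL KO. ANXA1, the partner of S100A11, had 3787 and 2665 counts, at -0.30 (95% interval -0.37 to -0.22). The largest differences were elsewhere, in ANXA13 (4 and 111 counts, 4.67) and ANXA4 (2644 and 10627 counts, 2.22), which were higher in MAEL KO, and in ANXA3 (669 and 109 counts, -2.40), which was lower. ANXA13 passed the filter through its MAEL KO count alone. ANXA6 had 60 and 18 counts, at -1.48, and ANXA11 had 2169 and 2909, at 0.63.

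Of 15 genes for other binding partners, 14 passed the filter, and these 14 lay between -0.90 and 0.73. Their median was 0.26 with TMM and -0.0135 with library totals. The highest were CAPZA1 (2383 and 3425 counts, 0.73), PPP5C (1384 and 1769 counts, 0.56) and AHNAK (3621 and 4394 counts, 0.49), a giant protein tied to the S100A10 complex. The lowest were PLAT, the tissue plasminogen activator (29 and 13 counts, -0.90), DLG5 (1838 and 1042 counts, -0.61) and S100PBP, the S100P-binding protein (868 and 551 counts, -0.44). The 95% interval of PLAT was -2.01 to 0.04. Of 10 receptors tied to released S100 proteins, 8 passed, with 2 above 1 and a median of 0.27 with TMM and -0.0016 with library totals. Among all tested genes 10.2% were above 1. AGER had 138 and 154 counts, at 0.37 (95% interval 0.03 to 0.71), and TLR4, a receptor for calprotectin, had no count. MCAM (6 and 16 counts, 1.47, 95% interval 0.20 to 3.27), SCARB1 (3151 and 5544 counts, 1.03) and EGFR (4717 and 6869 counts, 0.75) were the highest. MCAM passed the filter through its MAEL KO count alone, and SCARB1 was at 0.75 with library totals. FGFR1 (1311 and 823 counts, -0.46), ERBB2 (2414 and 1755 counts, -0.25) and ALCAM (3580 and 3461 counts, 0.16, or -0.11 with library totals) were the lowest.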

How the data were processed

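Per the labels and the study's methods, total RNA of PLC8024 cells was sequenced on a HiSeq platform. The submitters' processing notes name HISAT2 2.0.5, featureCounts 1.5.0-p3 and hg19. The coordinates in the deposited tables are instead those of GRCh38, and 58690 of 58735 genes have the position given by GENCODE 29. The authors deposited whole-number read counts per gene, without normalization, and FPKM values, which are per gene length and a library size other than the count total. The median log2 ratio of all genes was -0.042 by FPKM, the same as with DESeq2 size factors, and -0.31 with library totals. Strand use in counting is not given in the sources used here.

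Counts were scaled by TMM in edgeR 4.0.16 (factor 1.10044 in MAEL WT, 0.908725 in MAEL KO), with DESeq2 1.42.0 size factors as an alternative, in R 4.3.3. Python 3.11.15 (NumPy 2.4.6, pandas 2.3.3, SciPy 1.17.1) gave fold changes and exact intervals, and plots with matplotlib 3.10.9. The interval of a fold change is the Clopper-Pearson interval of the MAEL KO share of a gene's counts. Intervals of ratios between genes come from a normal approximation to the log ratio of counts. The steps were run on simulated libraries with counting error only and known changes, equally many up and down. That run does not test scaling under an uneven shift, such as 387 genes above 2 and 1008 below -2, or variation between replicates. Other alternatives were a prior count of 0.1 or of 5, library totals, FPKM ratios after adding 0.01, stricter or no filters on counts and protein-coding genes alone.

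The members and the lists were chosen with earlier results of these data known. Named were all members, other S100 genes with a count, ANXA2, MAEL, and up to 3 tested genes at each end of the other lists and of the chromosome 1 neighbours (for markers, with at least 100 counts in 1 library). AGER, TLR4, PTPRC, MPO, ITGAM, CSF3R, COL1A1, FLG and genes overlapping a member were named after their values were seen. A gene of the EF-hand list and the bases before 1 start site are not reported here.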

Additional observations from a re-analysis of the deposited data

How the results depend on the processing

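No paired analysis was possible because there was 1 library per condition, and no library could be left out for the same reason. Over 45 values of the 9 S100 genes under 5 other scalings or prior counts, 38 stayed within the counting interval and 0 changed sign. The 7 that moved beyond it were all with library totals, where only S100A2 and S100A4 stayed, both with wide intervals. DESeq2 size factors and FPKM ratios lay close to TMM (S100A10 at 1.44, 1.44 and 1.45), and prior counts hardly touch well counted genes. Most of the 45 values could therefore hardly move. S100P ranged from -2.77 to -2.49 and S100A10 from 1.17 to 1.45. The number of S100 genes below -2 went from 2 to 1 with at least 100 counts in 1 library and to 1 with at least 1000, since S100A4 was then left out, and the number above the threshold was 1 at a log2 threshold of 1. With only protein-coding genes outside the mitochondrial genome in the total, the S100 genes took 0.127% of the MAEL WT and 0.0614% of the MAEL KO counts. With library totals the median was -0.45 for the 55 tested chromosome 1 genes among or within 1 Mb of the members (-0.17 with TMM) and -0.29 for the rest of chromosome 1, which was at 0.10 for genes with at least 1000 counts. The median of all genes turned from -0.04 to 0.0665 with at least 100 counts, 0.18 with at least 1000 and 0.0171 for protein-coding genes alone. Library totals turned the median of the annexins to -0.09, of the binding partners to -0.0135 and of the receptors to -0.0016, and brought that of the other EF-hand genes to 0.0123. The filter at 1000 counts was chosen after seeing the data. The cause of the other shifts was not tested. Depth limits S100A2, S100A4 and S100A6.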

Other observations

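A list of 25 other EF-hand calcium-binding proteins, outside the S100 family, had 20 members that passed the filter, with 1 above 1 and 2 below -1 on the log2 scale. Among all tested genes 10.2% were above 1 and 16.5% below -1. Their median was 0.29 with TMM and 0.0123 with library totals. Among the highest were CHP1, a cofactor of sodium-proton exchangers (1756 and 3107 counts, 1.03), and EFHD2 (1088 and 1698 counts, 0.85). The lowest were EFHD1, a mitochondrial protein (243 and 28 counts, -2.87), RCN1, of the endoplasmic reticulum (1783 and 577 counts, -1.42), and CALB1 (29 and 15 counts, -0.71, 95% interval -1.75 to 0.21).

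Of 9 fibroblast markers, 3 passed the filter, and their list summed to 14.1 CPM in MAEL WT and 8.50 CPM in MAEL KO. These 3 did not share a direction. COL3A1 had 54 and 136 counts (1.52), while COL1A1 had 92 and 11 (-2.75) and PDGFRB 122 and 29 (-1.83). Of 7 endothelial markers 2 passed, with list sums of 18.1 and 19.8 CPM.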
